A study of Mus musculus with 2 samples.

Results

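Ribosomal protein processed pseudogenes were examined in allele-specific nuclear RNA of F121-6 cells. These are embryonic stem (ES) cells of a female hybrid mouse, with 1 genome of the 129 strain and 1 of Mus musculus castaneus (cas). The pseudogenes were the rows of the expression table named Rpl or Rps with the suffix -ps, leaving out chromosomes 10 and 17. There were 257 of them among 48550 rows, and 60 parent genes were named by the symbol before the suffix. Parents were kept on any chromosome, 10 and 17 included. The cells were grown with LIF on mouse embryonic fibroblasts inactivated with mitomycin C, and the samples form 1 group of 2 libraries. Separate cultures are not named for the libraries. The p-values therefore measure only a spread between them that may be technical, pooled over features of like abundance. In each library the reads of a row were divided between the 129 and the cas allele, and the comparison is 129 against cas within a library. The reads assigned to an allele numbered 28523744 in library 1 (53.6% from 129) and 31402765 in library 2 (54.2% from 129).

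A processed pseudogene arises when a messenger RNA is copied into DNA and inserted elsewhere in the genome, without introns and usually without the promoter of its parent. Ribosomal protein genes have left many such copies in mammalian genomes, because their short messages are abundant in all cells, the germ line included. The copies start nearly identical to the parent's coding sequence and drift afterwards. A sequencing read from a young copy can therefore differ from the parent's at few bases or none, and reads are assigned to a strain only where the strains differ.

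Markers of ES cells and of the feeder layer were both present. Of 10 ES cell markers 9 were tested, and 1 was higher from 129 and 4 from cas by the test described below. Among all tested features 21.9% were higher from 129 and 22% from cas. The ES cell markers had 94951 and 99325 summed reads in the libraries, with 53.4% and 53.9% of these from 129. Sox2, which lies inside the long noncoding gene Sox2ot, was listed at 0. Of 10 fibroblast markers 8 were tested and 7 were higher from 129, with summed reads of 52735 and 57154, 63.2% and 66.3% from 129, and Lum at 0. The matrix gene Fn1 held 77.9% of these reads, and without it 86.8% and 88.1% came from 129. The median log2 ratio of 129 to cas was 2.74 for the tested fibroblast markers and -0.17 for the ES cell markers. The labels give no strain for the feeder layer, and the part of feeder RNA in the ratios of the pseudogenes was not tested. In bulk RNA fewer cells of a type and less RNA per cell cannot be told apart.

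All 257 rows matched GENCODE release M21 on mm10. The annotation gives 247 of them as processed pseudogenes, 5 as transcribed processed pseudogenes and 5 as protein coding. Reads of both alleles and both libraries came to 11039, or 0.0184% of all allele reads. Library 1 gave 3296 reads from 129 and 2238 from cas, library 2 gave 3052 and 2453, and the 4 rows with most reads held 45% of the total. No allele read was assigned to 158 rows, 68 had reads but fewer than 20 in at least 1 library, and 31 had at least 20 in each library and entered the test. This minimum counts both alleles together, so a pseudogene passes whether its reads are even or from 1 allele.

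The sequences of 8 tested pseudogenes are shown because they carry the contrast that follows, between near-identity with the parent and a strongly uneven split of alleles. Each is the part aligned to the parent's coding sequence, or the 300 bases of it with the most differences where it is longer, read 5′ to 3′ from GENCODE M21 transcripts of the reference genome, and capitals mark bases that differ from the parent. The first 3 gave nearly all their reads from 129. Rpl34-ps1 is shown from chr6:71124628-71124927 on the plus strand, Rpl36-ps3 from chr12:12912022-12912321 (plus) and Rps12-ps10 from chr2:122219993-122220292 (plus), all in mm10 coordinates. Over the whole aligned part they differ from the coding sequences of their parents at 2, 4 and 4 bases, all of them shown.
Rpl34-ps1: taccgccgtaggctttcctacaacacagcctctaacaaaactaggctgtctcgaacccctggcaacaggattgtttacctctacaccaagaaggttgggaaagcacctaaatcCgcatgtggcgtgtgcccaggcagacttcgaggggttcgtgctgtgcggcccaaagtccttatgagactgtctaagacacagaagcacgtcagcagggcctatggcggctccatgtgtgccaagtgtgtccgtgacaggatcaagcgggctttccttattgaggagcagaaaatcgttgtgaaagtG
Rpl36-ps3: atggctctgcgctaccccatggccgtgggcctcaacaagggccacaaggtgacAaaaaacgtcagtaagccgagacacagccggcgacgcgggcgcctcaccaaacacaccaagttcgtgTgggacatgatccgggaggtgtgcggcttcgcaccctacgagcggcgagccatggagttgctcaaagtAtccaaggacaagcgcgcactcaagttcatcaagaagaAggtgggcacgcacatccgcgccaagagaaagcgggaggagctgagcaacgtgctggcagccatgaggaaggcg
Rps12-ps10: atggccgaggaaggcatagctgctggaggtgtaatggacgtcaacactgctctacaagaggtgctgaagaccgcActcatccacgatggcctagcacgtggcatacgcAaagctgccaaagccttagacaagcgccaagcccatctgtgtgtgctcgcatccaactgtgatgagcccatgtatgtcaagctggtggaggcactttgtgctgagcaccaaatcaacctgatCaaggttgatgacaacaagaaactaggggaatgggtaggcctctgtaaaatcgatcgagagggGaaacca

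The other 5 gave most of their reads from cas. Rps12-ps24 (chr8:36025753-36026052, plus) is a second copy of Rps12 with the opposite allele, and it lacks 15 bases of the parent that the letters cannot show, besides 7 differing bases. Rpl31-ps10 (chr4:137395362-137395661, plus), Rpl38-ps1 (chr4:138425790-138426002, plus), Rps15-ps2 (chr6:58017542-58017841, plus) and Rpl39-ps (chr15:102635039-102635188, plus) differ from their parents at 7, 4, 10 and 1 bases, of which all but 1 of Rps15-ps2 are shown. The sources used here do not give the bases that differ between 129 and cas, so no strain difference can be placed on these letters.
Rps12-ps24: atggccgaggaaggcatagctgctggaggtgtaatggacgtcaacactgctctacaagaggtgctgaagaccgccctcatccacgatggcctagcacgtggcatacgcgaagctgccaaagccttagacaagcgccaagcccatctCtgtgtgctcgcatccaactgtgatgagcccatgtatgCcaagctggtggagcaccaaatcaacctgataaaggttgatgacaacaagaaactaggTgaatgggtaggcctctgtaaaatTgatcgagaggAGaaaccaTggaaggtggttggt
Rpl31-ps10: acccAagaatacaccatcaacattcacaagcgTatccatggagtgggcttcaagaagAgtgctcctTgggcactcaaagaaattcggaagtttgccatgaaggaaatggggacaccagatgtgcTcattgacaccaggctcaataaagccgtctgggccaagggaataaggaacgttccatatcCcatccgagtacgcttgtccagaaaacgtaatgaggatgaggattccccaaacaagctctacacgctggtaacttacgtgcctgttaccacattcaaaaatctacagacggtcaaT
Rpl38-ps1: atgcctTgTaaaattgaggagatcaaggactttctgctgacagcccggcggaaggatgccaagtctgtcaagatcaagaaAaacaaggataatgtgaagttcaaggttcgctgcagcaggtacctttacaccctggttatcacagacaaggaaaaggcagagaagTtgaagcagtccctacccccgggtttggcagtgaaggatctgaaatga
Rps15-ps2: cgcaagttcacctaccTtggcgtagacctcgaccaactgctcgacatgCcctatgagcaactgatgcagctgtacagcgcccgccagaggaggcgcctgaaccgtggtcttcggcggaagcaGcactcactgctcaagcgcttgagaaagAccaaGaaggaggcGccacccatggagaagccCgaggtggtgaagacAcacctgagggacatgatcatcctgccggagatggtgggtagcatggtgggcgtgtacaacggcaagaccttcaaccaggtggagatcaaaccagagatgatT
Rpl39-ps: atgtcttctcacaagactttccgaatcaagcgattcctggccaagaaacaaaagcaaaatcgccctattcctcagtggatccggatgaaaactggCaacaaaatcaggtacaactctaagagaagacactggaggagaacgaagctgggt

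Whether a pseudogene had any read went with its position. Of 77 pseudogenes inside another gene, 74 of them in introns, 76 had 0 reads. All 73 that lay inside a gene with a row of its own in the table had 0 reads, although each had a host with reads. The reads of the host, or of the one with most, had a median of 2827 over both libraries. Of the 54 inside genes of the opposite strand only, 0 had reads, and of the 23 inside a gene of the same strand 1 did. That was Rpl36-ps3, in an intron of the noncoding gene Gm40271, which was not matched to a row. Among the 180 pseudogenes that were not inside another gene, 98 (54.4%) had reads. The same division held for the 6590 other rows annotated as processed pseudogenes, where 1.78% of those inside a gene and 36.2% of the others had reads. The sources used here do not say how reads in overlapping genes were counted, so a row at 0 inside a gene cannot be told apart from one whose reads were not counted. No pseudogene could be compared with a host gene, since none with reads lay inside a row of the table.

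**Figure D1:**
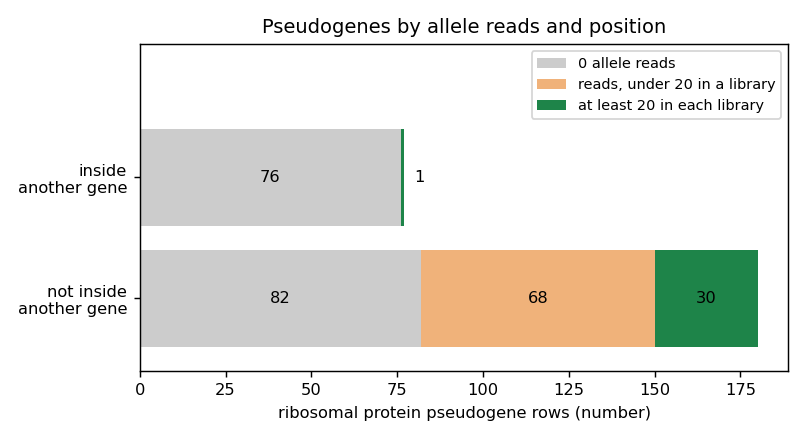
Number of pseudogene rows (x axis) inside and not inside another annotated gene, divided by allele reads. Of those inside a gene 76 had 0 reads and 1 was tested, against 82 with 0 reads and 30 tested among the others.

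Among pseudogenes not inside another gene, those with more reads were closer to the parent in sequence. The 30 tested ones had a median identity of 98.8% to the parent's coding sequence (94.4 to 100), the 68 with fewer reads 95.7% (83.5 to 100) and the 82 at 0 reads 93% (68.1 to 100). The longest stretch identical to the parent had a median of 186, 104 and 61 bases in these groups, and it reached the read length of 100 bases in 26 of 30, 36 of 68 and 29 of 82. Over 179 such pseudogenes, total reads and identity had a Spearman rho of 0.41, given as a description, since these points share libraries and sequence families. Identity is measured on the reference genome and not on either strain of the cross. Of 257 pseudogenes, 247 shared the most words of 25 bases with the named parent, among them all 31 tested ones.

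**Figure D2:**
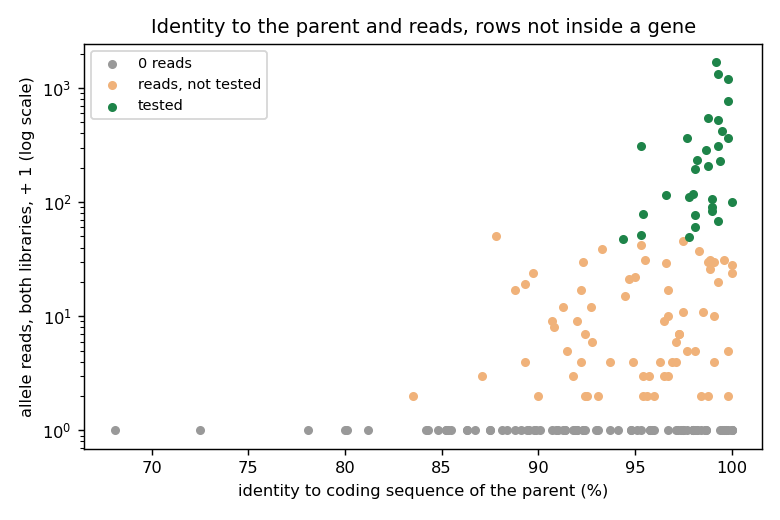
Identity of each pseudogene to the coding sequence of its parent (x axis, %) and its allele reads over both libraries plus 1 (y axis, log scale), for pseudogenes not inside another gene. The tested ones lie between 94.4% and 100% identity.

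Rpl10a-ps1 (chr1:64993951-64994604, minus strand) was identical to the whole coding sequence of Rpl10a, a large subunit protein gene, and still received 41 and 59 allele reads. Of 12 pseudogenes identical over the whole coding sequence of the parent, 7 lay inside another gene and had 0 reads. Of the other 5, Rpl27-ps3 (27 reads), Rpl31-ps8 (23 reads) and Rpl10a-ps1 had reads. Those with reads were named after their values were seen. Whether reads of such copies stem from the copy, from the parent or from another copy was not tested, for these or for the other pseudogenes. Identical stretches shared by copies of 1 parent can also exceed the read length of 100 bases. The longest was 582 bases between Rps2-ps10 and Rps2-ps13, and 235 between Rpl17-ps10 and Rpl17-ps9.

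Of the 31 tested pseudogenes 25 had unequal alleles by limma (Benjamini-Hochberg adjusted p under 0.05), 80.6% against 43.9% of all 15509 tested features. Ratios are log2(129/cas) of reads scaled for library size (CPM), plus 0.1, relative to the typical gene, so that a positive value is higher from 129. In that direction 10 were called (32.3%, against 21.9% of all features), and 15 were higher from cas (48.4%, against 22%). The sizes were large. A called difference of at least 2-fold was found for 24 (77.4%, against 17.3% of all features), and one of at least 8-fold for 14 (45.2%, against 3.44%). Of the latter 6 were toward 129 (2.3% of all features) and 8 toward cas (1.15% of all features). The added 0.1 bears on this count where an allele is near 0 reads. With 0.5 added it was 8 of 31 (1.57% of all features), and with 0.02 it was 17 (4.09%). Among the 9666 features with as many reads as the tested pseudogenes (47 to 1676 over both libraries), 35.6% were called, 22.9% at 2-fold and 4.91% at 8-fold. The median size of the ratio was 2.96 for the pseudogenes and 0.54 for features in that range. The median signed ratio was -0.60, against 0.00 for all features, and it was -0.34 without library 2 and -0.18 with a minimum of 10 reads. Both libraries gave the same direction for all 25 called pseudogenes, which is no independent check, and the gap between libraries had a median of 0.59 (0.26 over all features). Of 76 tested cytosolic ribosomal protein genes, 15 were higher from 129 and 34 from cas (64.5%), with a median of -0.24, but 27 and 15 with 1 library size shared by the alleles. Of these 6 differed at least 2-fold and 1 at least 8-fold. Of 53 tested pseudogenes with -ps symbols of other families, 29 were called (54.7%), 12 toward 129 and 17 toward cas, 13 of them at least 8-fold (24.5%).

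**Figure D3:**
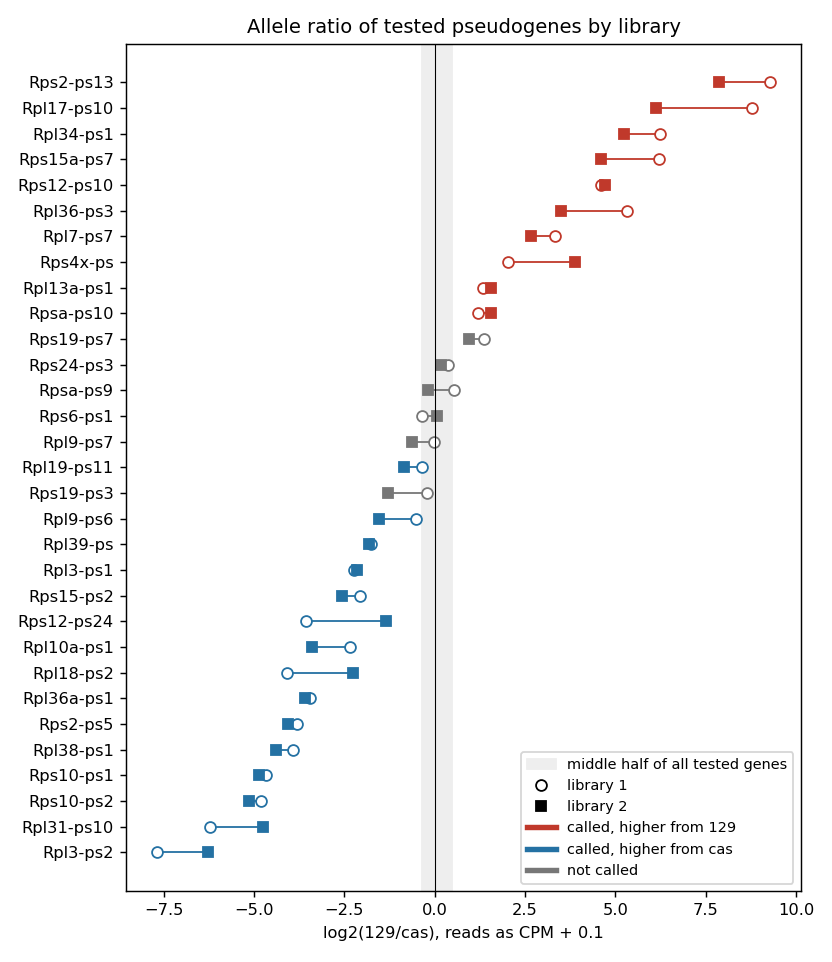
Ratio log2(129/cas) of each tested pseudogene in library 1 (open circles) and library 2 (squares), coloured by the call. The grey band spans the quartiles of all tested features, and most pseudogenes lie outside it on either side.

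**Figure D4:**
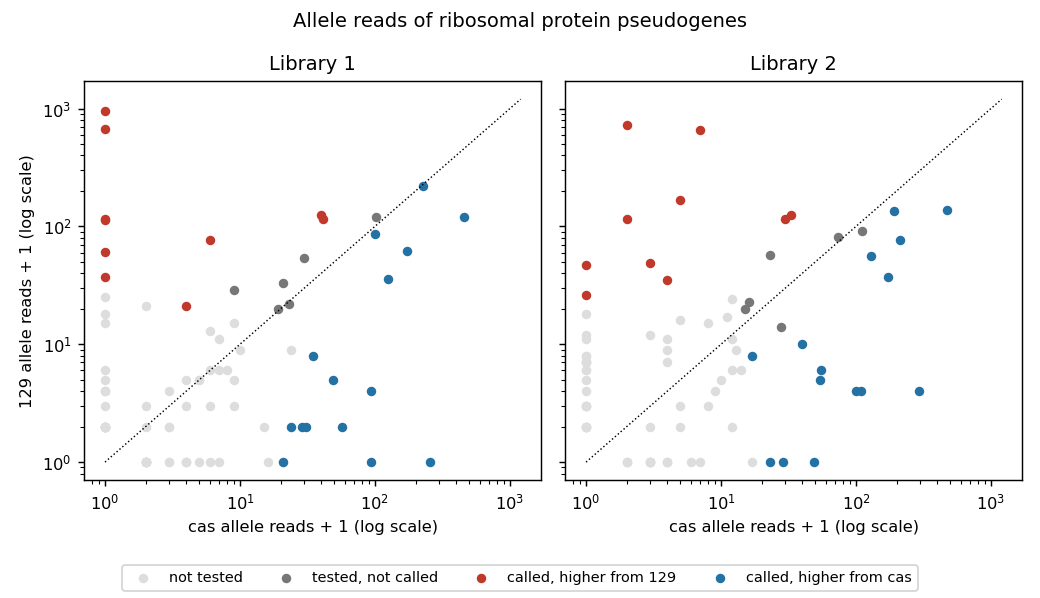
Allele reads plus 1 of each pseudogene with reads, cas on the x axis and 129 on the y axis, both on log scales, for each library. Many called pseudogenes lie close to an axis, such as Rps2-ps13 with 958 and 717 reads from 129 against 0 and 1 from cas, while others such as Rpl19-ps11 lie near equal reads.

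Toward 129, the pseudogenes with most reads were almost free of cas reads. Rps2-ps13, on chromosome X at 52898588 to 52899469, is a copy of the gene for a small subunit protein of the ribosome. It had 958 reads from 129 and 0 from cas in library 1, and 717 and 1 in library 2. It was the row with the most reads among the pseudogenes, with a pooled 129 share of 99.9% (exact 95% interval 99.7 to 100) and a log2 ratio of 8.57 (SE 0.48, adjusted p = 6.5e-68 in limma). Rpl17-ps10, a copy of a gene for a protein at the ribosomal exit tunnel (chromosome 7, 72648757 to 72649311), had 669 and 0 reads, then 658 and 6. Its ratio was 7.44 (SE 0.44, adjusted p = 1.4e-60), from 8.77 in library 1 and 6.12 in library 2. The cas allele was thus near 0 in both libraries for these rows, with no overlap with the 129 reads. The size of such ratios depends on the value added. With 0.5 or 0.02 in place of 0.1 they were 6.55 and 10.19 for Rps2-ps13, and 5.89 and 8.72 for Rpl17-ps10. Intervals of read shares here and below cover counting error only.

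Shorter rows with fewer reads gave the same picture. Rpl34-ps1, shown above with 2 bases differing from its large subunit parent, had 114 reads from 129 and 0 from cas in library 1, and 115 and 1 in library 2 (ratio 5.73, SE 0.78). Rps15a-ps7, a copy of a small subunit gene (chromosome 2, 152185291 to 152185682), had 113 and 0, then 166 and 4 (5.41, SE 0.67). Rpl36-ps3 had 60 and 0, then 48 and 2 (4.41, SE 0.89). The only tested pseudogene with 0 cas reads in both libraries was Rps12-ps10, with 36 and 46 reads from 129. Against a floor of 3 cas reads over both libraries its ratio was at least 4.44, and 0 cas reads of 82 leave a 129 share of at least 95.6% (exact 95% interval).

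The remaining called pseudogenes toward 129 had smaller ratios. Rpl7-ps7 (chromosome 5, 82336851 to 82337649), a copy of a large subunit gene, had 75 reads from 129 and 5 from cas, then 34 and 3, a ratio of 2.99 (SE 0.72). Rps4x-ps, on chromosome 5 while its parent Rps4x is on X, had 20 and 3, then 25 and 0 (2.96, SE 1.04, adjusted p = 0.012), with 2.04 in library 1 and 3.88 in library 2. Rpl13a-ps1 (chromosome 19, 50030124 to 50030735) had 125 and 39, then 114 and 29, a 129 share of 78.0% ± 2.48 (SD, n = 2) and a ratio of 1.46 (SE 0.37). Rpsa-ps10 (chromosome 3, 150072658 to 150073542) is a copy of the gene for the small subunit protein SA, also known as the laminin receptor. It had 115 and 40, then 125 and 32 (76.9% ± 3.84, ratio 1.38, SE 0.36). In both libraries the 129 reads of these pseudogenes exceeded the cas reads.

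Toward cas, the most one-sided was Rpl3-ps2, a copy of the gene for a large subunit protein near the peptidyl transferase centre (chromosome X, 74170653 to 74171866). It had 0 reads from 129 and 255 from cas in library 1, and 3 and 290 in library 2 (ratio -6.98, SE 0.57, adjusted p = 4.3e-33 in limma). Its relative Rpl3-ps1, also on X (13202571 to 13203780), had 119 and 459, then 136 and 475. There the 129 share was 21.4% ± 1.18 and the ratio -2.19 (SE 0.19), so that both X-linked copies of Rpl3 were higher from cas, but only Rpl3-ps2 was nearly free of 129 reads. Rps24-ps3, also on X (79195047 to 79195448), had 32 and 20, then 22 and 15, without a call (0.27, SE 0.62). The 4 tested X-linked copies were thus 1 toward 129, 2 toward cas and 1 not called.

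Several autosomal copies had 5 or fewer reads from 129 in each library. Rpl31-ps10, a copy of a gene for a protein at the exit tunnel, had 0 reads from 129 and 92 from cas, then 3 and 99 (-5.48, SE 0.73). The small subunit gene Rps10 has copies on chromosome 3 (Rps10-ps1, 95622278 to 95622772) and chromosome 16 (Rps10-ps2, 20822145 to 20822640). Rps10-ps1 had 3 and 92, then 3 and 108 (-4.76, SE 0.63). Rps10-ps2 had 1 and 56, then 0 and 48 (-4.96, SE 0.89), so that the ratios of the copies lay close together. The copies share an identical stretch of 133 bases, and whether their reads can be told apart was not tested. Within the annotated span the longest frame from start to stop is 12% of the parent's coding sequence for either copy. The spans cover 99.4% and 99.6% of that sequence, and a frame without a stop inside the span is not counted. Rpl38-ps1 had 1 and 30, then 0 and 28 (-4.15, SE 1.01), and Rps2-ps5 (chromosome 14, 69158671 to 69159519) had 1 and 28, then 0 and 22 (-3.94, SE 1.05). Rpl36a-ps1, annotated as protein coding (chromosome 14, 98993870 to 98994318), had 4 and 48, then 4 and 53, a 129 share of 7.35% ± 0.48 (-3.52, SE 0.71). With 109 allele reads it exceeded its X-linked parent Rpl36a, which had 28 and was not tested, but levels are not compared between genes.

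Other copies were higher from cas with some reads from 129. Rpl10a-ps1 had 7 reads from 129 and 34 from cas, then 5 and 54 (-2.86, SE 0.69). Rpl18-ps2, a copy of a large subunit gene on chromosome 6 (128313357 to 128313923), had 0 and 20, then 9 and 39 (-3.17, SE 0.88). Rps12-ps24 had 1 and 23, then 7 and 16 (-2.45, SE 0.92, adjusted p = 0.021). In these last pseudogenes the libraries differed, with -4.08 and -2.26 for Rpl18-ps2 and -3.55 and -1.34 for Rps12-ps24. Rps15-ps2 had 35 and 123, then 36 and 171 (-2.31, SE 0.35), and Rpl39-ps, a copy of the gene for a very small protein of the exit tunnel, 61 and 172, then 76 and 211 (-1.79, SE 0.28). The 129 share of Rpl39-ps was 26.3% ± 0.21.

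The other copies had smaller ratios or no call. Rpl9-ps6, annotated as protein coding (chromosome 19, 32465865 to 32466578), had 85 reads from 129 and 99 from cas, then 55 and 128, a ratio of -1.03 (SE 0.32, adjusted p = 0.0037). Rpl19-ps11 (chromosome 8, 19492936 to 19493526) had 218 and 226, then 135 and 190 (-0.60, SE 0.22, adjusted p = 0.015). Without the library block neither was called (adjusted p = 0.061 and 0.20), nor were they with 1 library size shared by the alleles (0.051 and 0.30). Rpl9-ps7, a second copy of Rpl9, had 120 and 100, then 90 and 109 (-0.33, SE 0.29). The copies of Rps19, the gene for a small subunit protein mutated in Diamond-Blackfan anaemia, were not called either. Rps19-ps7 had 28 and 8, then 56 and 22 (1.16, SE 0.60, adjusted p = 0.10, and 0.029 with the shared library size), and Rps19-ps3 19 and 18, then 13 and 27 (-0.75, SE 0.66). Rpsa-ps9 had 53 and 29, then 81 and 72 (0.18, SE 0.40). Rps6-ps1, a copy of the gene for the main ribosomal substrate of the S6 kinases, had 21 and 22, then 19 and 14 (-0.13, SE 0.65).

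Parent genes had smaller ratios than most of their copies. The 31 tested pseudogenes have 24 parents, of which 23 were tested, 5 higher from 129, 13 from cas and 5 not called, with a median ratio size of 0.43. Of all tested features 21.9% were higher from 129 and 22% from cas, with a median ratio size of 0.40. With the shared library size 7 parents were higher from 129, 6 from cas and 10 not called, so the excess toward cas depended on the scaling. Only Rps15, Rps2 and Rpl19 differed at least 2-fold, with ratios of 2.57 (SE 0.15), 1.92 (SE 0.12) and -1.04 (SE 0.13). A called difference of that size was found for 17.3% of all features. In 24 of 30 pairs the pseudogene was farther from 0 than its parent. Most parents had more reads than their copies, and reads were not matched between them. The difference of ratios had a 95% interval that left out 0 in 22 pairs, 10 with the pseudogene more toward 129 and 12 more toward cas. By the same unadjusted rule the ratio itself left out 0 for 49.7% of all tested features. Both members of a pair were called in 18 cases, 8 in the same direction and 10 in opposite directions. Over the 30 pairs Spearman's rho was 0.06 and Pearson's r 0.03, as a description, since copies of 1 parent share its value and all pairs share libraries.

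**Figure D5:**
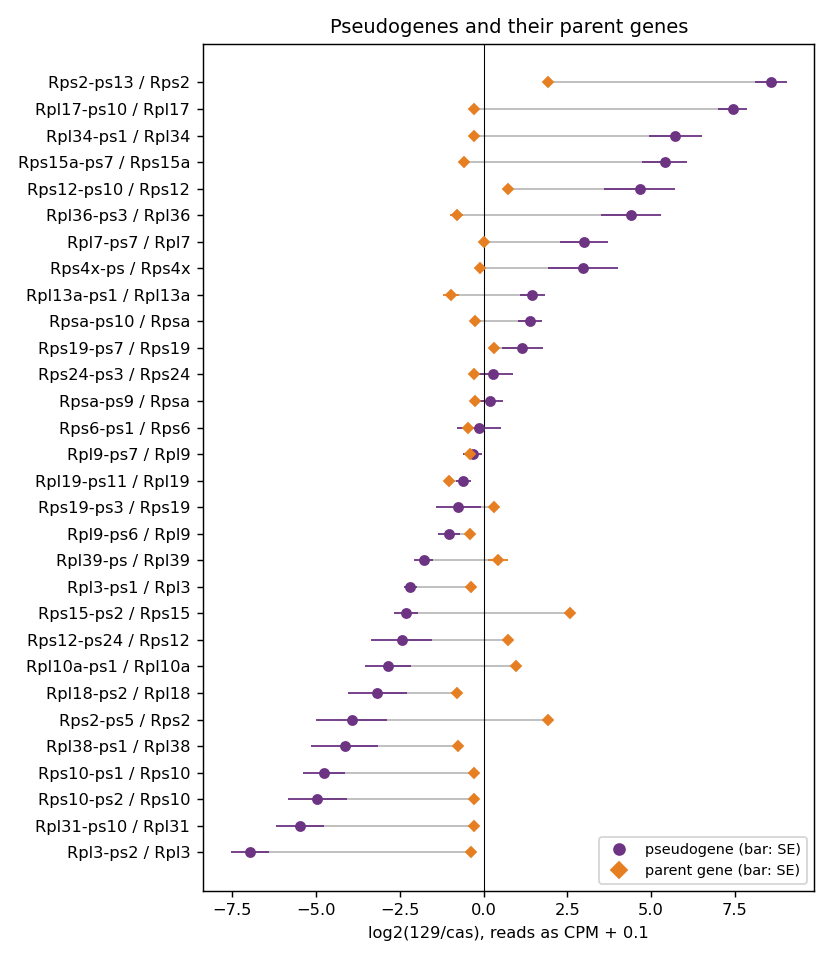
Ratio log2(129/cas) of each tested pseudogene (circles) and of its parent gene (diamonds), with SE bars. Parents lie between -1.04 and 2.57, while pseudogenes reach -6.98 and 8.57.

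Of the 10 copies called toward 129, 7 had a parent with a ratio below 0, and 3 with the shared library size. Rpl17 had 609 reads from 129 and 687 from cas, then 792 and 665, a 129 share of 50.7% ± 5.21, while Rpl17-ps10 stood at 99.6% ± 0.64, a difference of 7.73 (95% interval 6.83 to 8.63). With 0.5 or 0.02 added in place of 0.1 that difference was 6.17 and 9.01, outside the interval. Rpl34 had 713 and 652, then 768 and 780, and the difference from its copy was 6.01 (4.47 to 7.54). For Rps15a, with 1970 and 2339, then 2247 and 2668, it was 5.98 (4.65 to 7.31), and for Rpl36, with 193 and 245, then 193 and 296, it was 5.22 (3.44 to 7.00). All 4 parents were called toward cas, Rps15a at -0.58, Rpl36 at -0.80, Rpl17 at -0.29 and Rpl34 at -0.28 (adjusted p = 0.033 and 0.039 for the last pair). With the shared library size Rpl17 and Rpl34 stood at 0.04 and 0.05, without a call. Rpl13a had -0.98 (SE 0.24), so that Rpl13a-ps1 differed from it by 2.44 (1.58 to 3.31). Rpsa, at -0.26 and called toward cas, or at 0.07 and not called with the shared library size, differed from Rpsa-ps10 by 1.64 (0.91 to 2.37).

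In other pairs the parent was called toward 129 and the copy toward cas. These parents lie on the chromosomes left out for pseudogenes, Rps15 and Rps12 on 10, Rpl10a and Rps2 on 17. Other parents of tested pseudogenes on 17 were not called toward 129. Rpl36 stood at -0.80 and was called toward cas, and Rps10 stood at -0.29 without a call. Other genes of these chromosomes were not examined here. Besides Rps15, Rps12, Rpl10a and Rps2, the only parent of a tested pseudogene called toward 129 was Rps19, on chromosome 7. Rps15 had 1008 reads from 129 and 130 from cas, then 1040 and 142, a 129 share of 88.3% ± 0.42, against 19.8% ± 3.37 for Rps15-ps2. The difference was -4.88 (95% interval -5.62 to -4.13). Rpl10a had 786 and 359, then 1017 and 366, and its identical copy Rpl10a-ps1 differed by -3.83 (-5.20 to -2.47). Rps12 had 856 and 387, then 1065 and 535, and lay between its copies, with a difference of -3.19 (-5.01 to -1.36) for Rps12-ps24 and 3.92 (1.86 to 5.99) for Rps12-ps10. Rps2 also lay between its copies. It had 1651 and 273, then 1400 and 373, with differences of -5.86 (-7.93 to -3.78) for Rps2-ps5 and 6.65 (5.68 to 7.62) for Rps2-ps13. With 0.5 or 0.02 added the differences were -4.06 and -7.44 for Rps2-ps5, and 4.65 and 8.26 for Rps2-ps13. For Rps12-ps10 they were 1.82 and 6.2. The intervals therefore do not cover the choice of the added value.

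Where parent and copy were called alike, the copy was mostly the more uneven one. Rpl3 had 3344 reads from 129 and 3513 from cas, then 3693 and 3759 (-0.38, SE 0.06), and its copies differed from it by -6.60 (-7.72 to -5.48) and -1.81 (-2.20 to -1.42). Rpl38 (-0.76, SE 0.12) and Rpl18 (-0.80, SE 0.17) differed from their copies by -3.39 (-5.39 to -1.39) and -2.38 (-4.13 to -0.62). Against the uncalled parents Rpl31 and Rps10, the differences were -5.18 (-6.65 to -3.71) for Rpl31-ps10, -4.47 (-5.74 to -3.20) for Rps10-ps1 and -4.67 (-6.43 to -2.90) for Rps10-ps2. Against the uncalled Rpl7, Rps4x and Rpl39, they were 2.97 (1.54 to 4.40), 3.08 (1.03 to 5.12) and -2.21 (-3.01 to -1.42). The 8 intervals that held 0 were those of Rpl9-ps6 (-1.28 to 0.01), Rpl9-ps7 (-0.53 to 0.66), Rpl19-ps11 (-0.05 to 0.95), Rps6-ps1 (-0.97 to 1.62), Rpsa-ps9 (-0.35 to 1.24), Rps24-ps3 (-0.67 to 1.77), Rps19-ps3 (-2.37 to 0.22) and Rps19-ps7 (-0.34 to 2.01).

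In some families the copies held a large share of the allele reads. Reads are assigned only where the strains differ, so these shares do not compare levels of RNA between copy and parent. Rpl39-ps had 520 reads against 451 for Rpl39, and the 7 pseudogenes of Rps2 made up 32.3% of the reads of their family, the 6 of Rpl17 32.6% and Rpl13a-ps1 32.7%. Adding the reads of all copies to those of the parent moved Rpl17 from -0.29 to 0.67, Rpl39 from 0.43 to -0.77, Rpl13a from -0.98 to -0.24 and Rps15 from 2.57 to 1.58. In contrast Rps12, whose copies lean both ways and make up 5.64% of the family's reads, was at 0.74 with and without them. Rps2 moved from 1.92 to 2.40. These sums were chosen after seeing the data and carry no test.

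Calls in both directions were found among copies with and without a full reading frame inside the annotated span. A reading frame as long as the parent's coding sequence, from start to stop within the annotated span, was present in 16 of the 31 tested pseudogenes. Of these 5 were called toward 129, 8 toward cas and 3 not at all, against 5, 7 and 3 among the 15 with a shorter frame. The shorter group includes spans that hold no stop after the start. Rpl36-ps3 and Rpl39-ps count with a frame of 0, although they cover 99.1% and 96.2% of the parent's coding sequence. The division therefore does not separate open from broken frames. Median identity to the parent was 98.8% for copies called toward either allele and 98.2% for uncalled ones. The nearest tested protein-coding gene lay at a median distance of 29243 bp. For the 25 called pseudogenes it was called in the same direction in 9, in the other direction in 6 and not called in 10. Of all tested features 43.9% were called. None of these neighbours differed 8-fold, which is near the 3.44% of all tested features that were called at that size. Thnsl2, 3203 bp from Rpl34-ps1, had a ratio of -1.86 where the pseudogene had 5.73. Rpl3-ps2 lay 5393 bp from Tktl1, with 0.66 against -6.98. Lrrd1, 8766 bp from Rps4x-ps, had 2.05 and the pseudogene 2.96. These neighbours were named after their values were seen.

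The 68 pseudogenes with reads below the minimum had 1 to 49 reads over both libraries, with a median of 6.5. Among the 28 with at least 10 reads, 5 had reads from 129 only and 2 from cas only. Rps18-ps1 had 0 from 129 and 20 from cas, then 0 and 16, which left it just outside the test, while Rpl18-ps2, with 20 and 48 reads in the libraries, and Rps2-ps5, with 29 and 22, were just inside it. Rps12-ps1, on chromosome X with 22 and 19 reads, was also just outside, with 14 from 129 and 8 from cas, then 15 and 4. These were named after their values were seen.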

How the data were processed

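Total nuclear RNA of 2 libraries was sequenced as strand-specific 100 bp paired-end reads, merged with earlier reads of the same libraries, per the labels' protocols. Bowtie2 and mm10 are named in the submitters' processing notes, without a version. The sources used here do not give the counting program, SNP set, annotation or use of strand. The deposited values are RPKM per allele, per the file headers called counts. Multiplied by row length, 100% of values were whole numbers of 1 read's step (tolerance 0.01 read), which gave reads. Deposited lengths matched the annotated span (within 2 bp) for 0 of 257 pseudogenes, so levels are not compared between genes. Ratios of alleles within a row do not depend on the length.

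The planned test was kept. Reads as CPM after TMM scaling, plus 0.1, were compared on the log2 scale with limma 3.58.1 in R 4.3.3 (trended variances, library as a block, Benjamini-Hochberg adjustment over 15509 features with at least 20 allele reads in each library, 1570 Y rows left out). Both alleles of a library were read from 1 RNA sample, which is the pairing, and the deviations of the 129 and cas columns between the libraries had a correlation of 0.09 over features. limma estimated infinite prior degrees of freedom, so SEs rest on a spread shared by features of like abundance and do not show how far a row's own libraries differed. Fold changes of rows with few reads are understated. On simulated data for 15377 genes, 62.7% of 1.5-fold, 91% of 2-fold and 100% of 4-fold changes were recovered with 5 false calls. The simulated spread was fixed, and changed genes were drawn from all tested features. It was not matched to the reads of the pseudogenes, so it gives no recovery rate for them. Intervals of pseudogene minus parent combine both SEs with a normal quantile. Shares of reads have exact Clopper-Pearson intervals. Sequences were compared by local alignment in Biopython 1.88. Alternatives changed scaling, pseudocount, read minimum, block, variance trend, test and libraries. Named were called pseudogenes with the 10 largest ratios in each direction, the 10 with most reads, up to 6 uncalled ones, and their parents and hosts, which took in all 31 tested. The pseudogenes, lists and tests were chosen with earlier results of these data known.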

Additional observations from a re-analysis of the deposited data

How the results depend on the processing

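Called toward 129 and toward cas were 10 and 15 pseudogenes, and 11 and 13 with 1 library size shared by the alleles. The shared size moved the median of all features from 0.00 to 0.32, with 6505 features called toward 129 and 1492 toward cas. Without the replicate block the pseudogenes called were 10 and 13 (3954 features called in place of 6809). The counts moved with a minimum of 100 reads in each library (6 and 6, of 13 tested, with 5524 of 11446 features called). They also moved without the variance trend (3 and 8, with 644 features called), where 14 pseudogenes lost their call at unchanged ratios. An exact binomial test of the reads in both libraries called 11 and 12, and 7029 features in all. In 1 library alone, without replicate 1 or 2, it called 11 toward 129 in either and 13 to 16 toward cas, a choice added after seeing the data. With a single library limma has no residual degrees of freedom, so only ratios are given. At least 8-fold were 14 pseudogenes (3.44% of all features), 8 with a pseudocount of 0.5 (1.57%) and 17 with 0.02 (4.09%). There were 5 at the minimum of 100 reads (2% of all features) and 9 without the variance trend (1.91%). Parents called were 5 toward 129 and 13 toward cas, 7 and 6 with the shared library size, 5 and 9 with column totals, 4 and 9 without the replicate block, and 1 and 0 without the variance trend. The median ratio of the tested pseudogenes was -0.60, -0.18 with at least 10 reads in each library or no filter, and -0.84 to -0.34 without replicate 1 or 2. Pairs with parents whose interval left out 0 were 22 of 30, 10 of 13 at the minimum of 100 reads and 38 of 96 with no filter. Differences from parents kept direction and side in 252 of 253 recomputed cases with an interval, and that of Rps19-ps7 came to leave out 0 without the variance trend. The other 29 were unchanged in that fit, although 14 pseudogenes and 17 parents lost their call in it. The agreement of intervals therefore does not carry over to the calls. In 1 library, with no interval, 1 of 60 turned, Rpl9-ps7 minus Rpl9 (0.07, and -0.29 without replicate 1). With the shared library size the called parents Rpsa (0.07), Rpl34 (0.05), Rpl17 (0.04) and Rps24 (0.05) changed sign, and with the reads of its copies added Rpl17 did (0.67). The cause was not tested. Rows near 20 reads limit the ratios that can be shown.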

Other observations

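Some pseudogenes below the read minimum differed between the libraries more than in the ratio of alleles. Rps19-ps5 had 1 read in library 1 and 17 in library 2, all from 129. Rpl36-ps8 had 0 reads in library 1 and 14 from 129 and 7 from cas in library 2. Rpl30-ps10, on chromosome X, had 24 and 5 reads, all from 129. Rpl5-ps1 had 14 reads from 129 and 0 from cas in library 1, but 3 and 8 in library 2. These were chosen after their values were seen.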
